A study of Mus musculus with 9 samples.

Results

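The genes described here make cholesterol, sense it and move it between and out of cells, and their RNA was measured in the retina of wild-type mice and of the db/db diabetes model. A list of 33 symbols was taken, and the 32 whose mean over all 9 libraries was at least 1 FPKM (sequenced fragments scaled to gene length and library size) are the members, out of 35397 genes in the deposited table and 14588 that reached the same mean. The list was drawn up with earlier results of these data known, and the mean level over all libraries then decided which symbols stayed. Their levels, and the shares of members set beside those of all genes, are therefore given as a description. The listed gene left out was Fdps, farnesyl diphosphate synthase, with a mean of 0.554 FPKM, and the member nearest the limit was Hsd17b7 at 1.67 FPKM. In the annotation 26.7% of the exon bases of Fdps also belong to the gene Gm43738 on the same strand; the part of this overlap in its low value was not tested.

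There were 5 libraries from wild type, numbered 1 to 5, and 4 from db/db, which the labels number 1, 3, 4 and 5. db/db mice carry a leptin receptor mutation in all their tissues and become obese and diabetic, so that diabetes and obesity come together in this model. The labels name the tissue as retina and give no age, sex, strain background or treatment for either group, and are silent on whether 1 animal or several stand behind a library. The p-values below therefore measure the spread between these libraries.

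Cholesterol is built from acetyl-CoA through the mevalonate pathway to squalene, which is closed into lanosterol and trimmed to cholesterol. SREBP2, encoded by Srebf2, is a membrane-bound factor that its escort SCAP carries to the Golgi when sterols are low, and it then switches on the synthesis genes, while the INSIG proteins hold SCAP back when sterols are plentiful. The liver X receptors, encoded by Nr1h3 and Nr1h2, respond to oxidised sterols and switch on the exporters ABCA1 and ABCG1 and the ligase MYLIP, which marks the low-density lipoprotein receptor for breakdown. In the retina, neurons and Müller glia make part of their cholesterol locally and part arrives from the blood, and photoreceptors and ganglion cells can turn it into oxidised sterols.

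The retinal identity of the libraries was clear from marker levels. The 5 rod markers summed to between 10100 and 12000 FPKM in every library. Library db/db 1 stood apart from the rest. Its median correlation with the other libraries was 0.935 on the log2(FPKM + 1) scale, against 0.978 to 0.988 for the others. Its 4 markers of retinal pigment epithelium summed to 364 FPKM, against 104 to 174 FPKM in wild type and 65.9 to 185 FPKM in db/db 3, 4 and 5, and its 3 blood markers to 54.2 FPKM, against 11.2 to 20.2 FPKM in all other libraries. Results are therefore given with it and without it. The deviation of each library from the wild-type mean correlated with transcript GC content at -0.12 to 0.13 in wild type and at 0.18 to 0.50 in db/db, which makes base composition a quantity that moves with the groups. Depth, read from the steps of the values, lay between 36.6 and 47.9 M reads a library, which gave Stard4 582 to 1223 reads and the lowest member, Hsd17b7, 222 to 496.

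The design has 1 contrast, the retina of the diabetic model against that of wild type. With all 9 libraries Stard4 and Insig1 fell, and no member rose, at a limma adjusted p under 0.05 over all 14588 genes. In the same comparison 0.267% of all tested genes were called lower and 0.233% higher, and an unadjusted p under 0.05 was reached by 19.3% of all tested genes and by 16 of the 32 members. In 7 members every db/db library was below every wild-type library, and in 2 every db/db library was above; over all tested genes the shares were 6.38% and 5.2%. The 2 higher members are a share close to that of all genes.

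By role, the estimates were as follows, with no test between roles. Of 17 measured synthesis genes 14 had an estimate below 0, with a median of -0.19, and the 4 efflux genes had a median of 0.27, Nr1h3 alone standing at 0.00, where the median over all tested genes was 0.00 (log2 differences). None of the 17 or the 4 passed with all 9 libraries, and the GC correction brought the synthesis median to -0.15 and the efflux median to 0.18, with 1 of the 4 efflux genes then below 0. With db/db 1 left out the same correction took the synthesis median from -0.18 to -0.21 and the efflux median from 0.25 to 0.17. Without db/db 1, 9 members fell and 3 rose, against 5.84% and 4.72% of all tested genes. The 9 were Idi1, Sqle, Msmo1, Nsdhl, Hsd17b7, Acat2, Tm7sf2, Insig1 and Stard4, and the 3 were Abca1, Abcg1 and Npc1. With db/db 1 left out and the values also corrected for GC content, 7 members fell and 3 rose, against 2.56% and 1.88% of all tested genes; Hsd17b7 and Acat2 no longer passed. In bulk tissue, fewer cells of a type and less RNA per cell cannot be told apart.

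**Figure D1:**
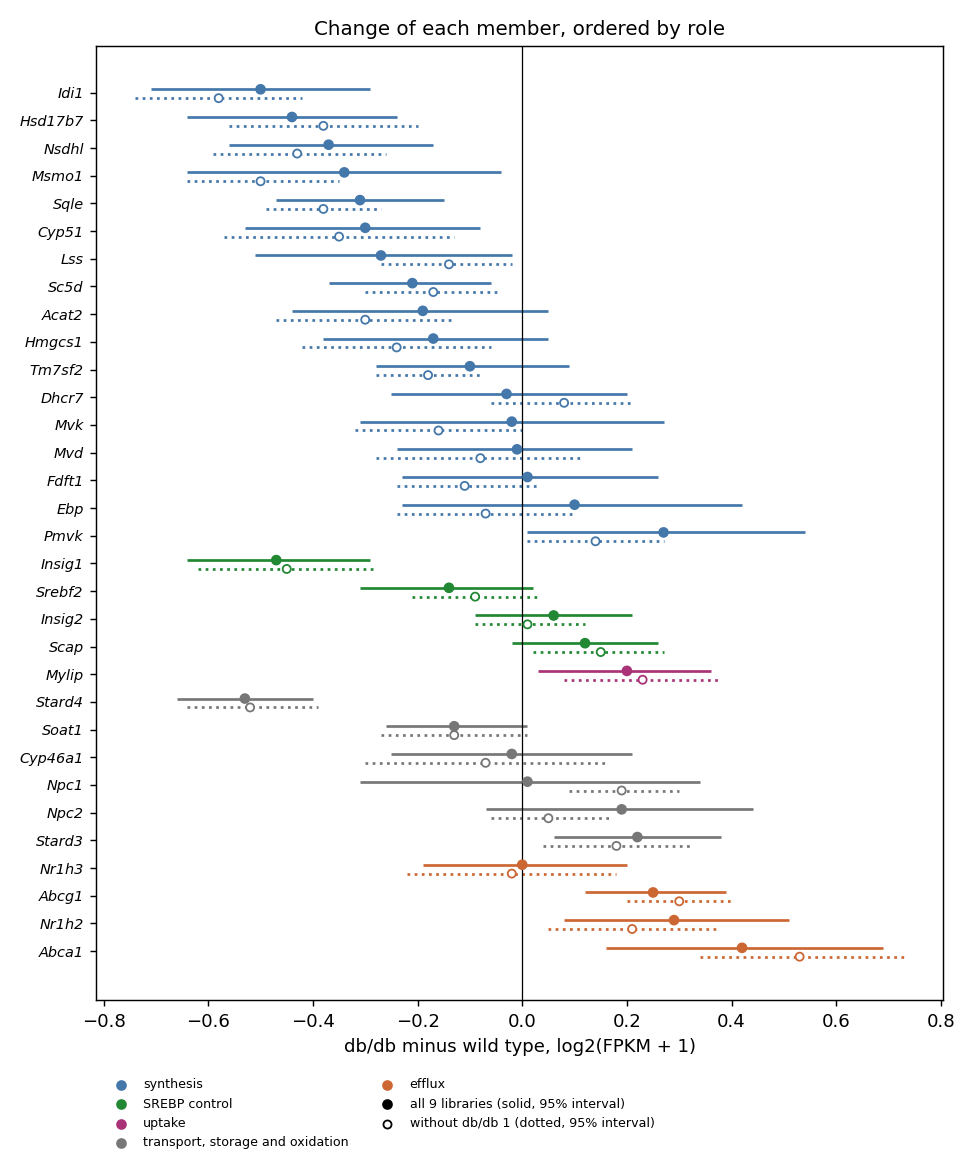
Difference between db/db and wild type for each of the 32 members, in log2(FPKM + 1) on the horizontal axis, with members on the vertical axis grouped and coloured by role. Filled points with solid lines are estimates and 95% intervals from all 9 libraries, open points with dotted lines those without db/db 1. Most synthesis genes lie left of 0, and Abca1, Abcg1, Nr1h2 and Mylip lie right of it.

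The sensing genes are described first. Insig1 encodes an anchor in the endoplasmic reticulum that holds SCAP when sterols are high, and it is itself a target of SREBP (ENSMUSG00000045294, chromosome 5, 28071363 to 28078662, mm10). Its level was 24.8, 24.9, 25.7, 24.1 and 24.7 FPKM in wild type 1 to 5, and 17.0, 15.6, 17.6 and 20.9 FPKM in db/db 1, 3, 4 and 5. The wild-type values lay close together, and all 4 db/db values lay below them, with db/db 5 the nearest. The log2 difference was -0.47 (SE 0.08, limma adjusted p = 0.0420; 0.0101 to 0.428 over all alternatives), a ratio of means of 0.716. Without db/db 1 it was -0.45 (adjusted p = 0.0146). With the GC correction on all 9 libraries it was -0.46 (adjusted p = 0.0858), so the call was lost while the size hardly moved. The call was also lost with no filter (adjusted p = 0.0767) and with libraries scaled to equal sums (adjusted p = 0.0712).

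Insig2, its relative that serves the same purpose and is not driven by SREBP in the same way, did not pass, with a log2 difference of 0.06 and a 95% interval of -0.09 to 0.21. The difference between Insig1 and Insig2 was not tested. Srebf2, the gene of the factor itself, held 27.3, 24.7, 25.8, 24.9 and 26.6 FPKM in the wild-type libraries 1 to 5, against 20.6, 22.5, 24.9 and 25.6 FPKM in db/db 1, 3, 4 and 5. The groups overlapped, and its log2 difference was -0.14 (95% interval -0.31 to 0.02, limma adjusted p = 0.312). With the GC correction on all 9 libraries it was -0.25 (adjusted p = 0.189). Once GC was corrected and db/db 1 left out it was -0.19 (adjusted p = 0.0544). In both of these corrected fits the groups no longer overlapped, db/db being lower, and Srebf2 did not pass. Scap, the escort, had 0.12 (95% interval -0.02 to 0.26), which the GC correction turned to -0.013, with 19.5 to 22.6 FPKM among wild-type libraries and 21.7 to 24.7 FPKM among db/db libraries. Of the 4 genes of this role 1 fell and 3 did not pass.

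Among the synthesis genes Idi1 and Hsd17b7 had the smallest p-values. Idi1, the isomerase that turns isopentenyl diphosphate into dimethylallyl diphosphate (ENSMUSG00000058258, chromosome 13, 8885501 to 8892451, mm10), held 5.29, 5.40, 5.80, 5.66 and 6.28 FPKM in wild type 1 to 5. In db/db 1, 3, 4 and 5 it held 4.57, 3.93, 3.34 and 3.16 FPKM. The groups did not overlap, and db/db 1 was the closest to wild type. The log2 difference was -0.50 (SE 0.09, limma adjusted p = 0.0537), so it did not pass with all 9 libraries, and it was -0.58 without db/db 1 (adjusted p = 0.00843). On all 9 libraries it did pass, close to the threshold, under median-of-ratios scaling (adjusted p = 0.0429), equal sums (0.0403), quantile normalization (0.0466) and limma-voom on recovered reads (0.0484), and further from it with array weights (0.00926) and length correction (0.0160). Over all alternatives its adjusted p ran from 0.00843 to 0.428. A stretch of 684 bases of Idi1 is identical to the annotated gene Gm13502, whose own mean was 2.77 FPKM for wild type against 1.29 FPKM for db/db. How reads were shared between the pair is not known here.

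Hsd17b7, a ketoreductase of the late sterol pathway, was the lowest member, at 1.64, 2.24, 2.13, 2.12 and 2.0 FPKM in wild type 1 to 5 and 0.956, 1.32, 1.45 and 1.19 FPKM in db/db 1, 3, 4 and 5. Here db/db 1 was the lowest library of all, unlike in Idi1. The ratio of means was 0.606, and the log2 difference of -0.44 (SE 0.09, limma adjusted p = 0.0652) is understated for a gene at this level. It passed without db/db 1 (-0.38, adjusted p = 0.0251) but not once GC was corrected too (-0.30, adjusted p = 0.0603).

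**Figure D2:**
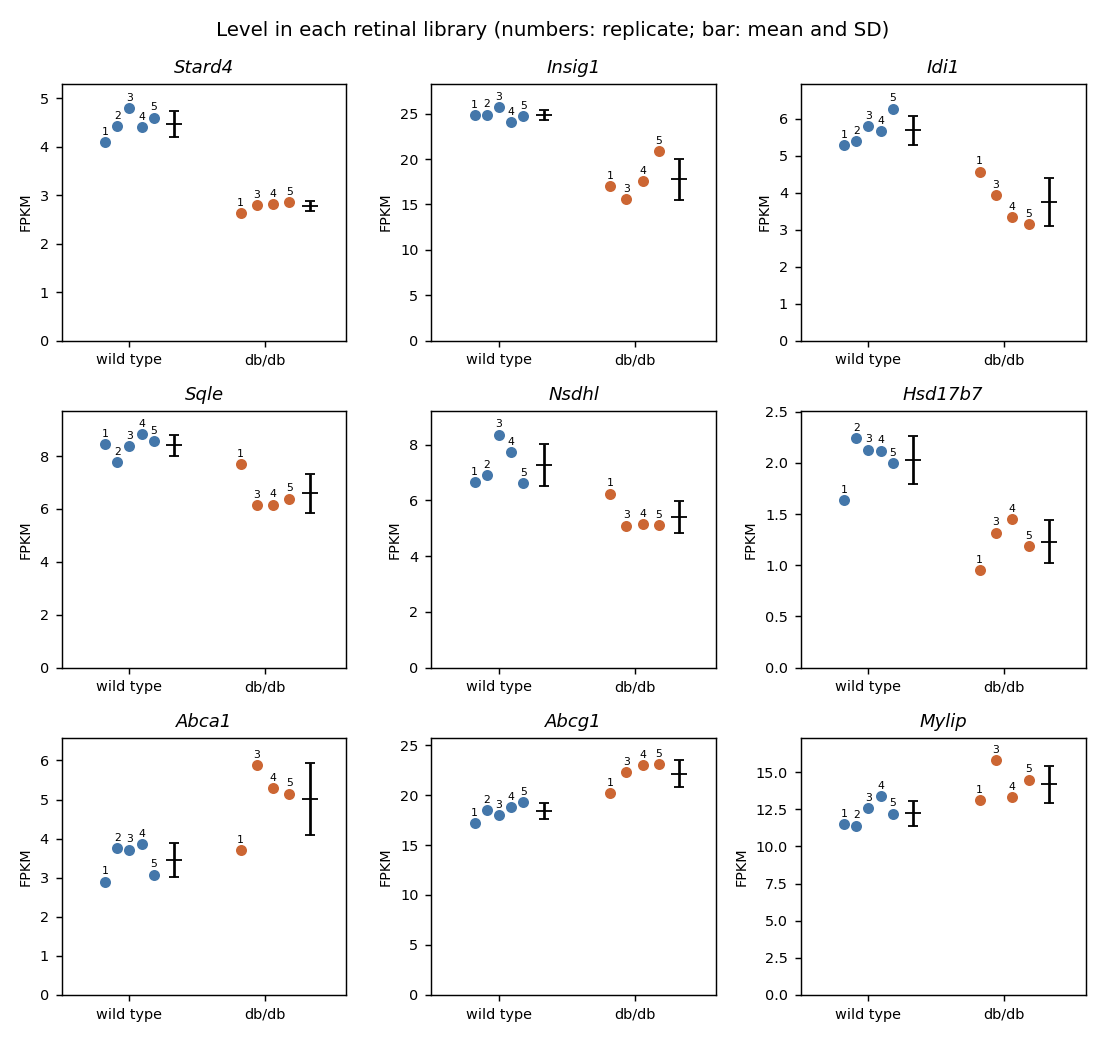
FPKM of 9 members in each library on vertical axes that start at 0, wild type in blue and db/db in orange, each point labelled with its replicate number and the black bar giving the mean and SD. In Stard4 the db/db values lie between 2.63 and 2.85, below all wild-type values, while in Abca1 db/db 1 lies among the wild-type values.

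Sqle, squalene epoxidase, which catalyses a slow step after squalene, held 7.78 to 8.84 FPKM in wild type, 7.68 FPKM in db/db 1, and 6.14, 6.16 and 6.39 FPKM in db/db 3, 4 and 5. The log2 difference was -0.31 (SE 0.07, limma adjusted p = 0.0735) with all libraries and -0.38 (adjusted p = 0.00843) without db/db 1. Nsdhl, the X-linked sterol dehydrogenase that removes a carboxyl group during demethylation, held 6.63 to 8.36 FPKM in wild type against 6.25, 5.10, 5.16 and 5.13 FPKM in db/db 1, 3, 4 and 5. In both genes db/db 1 came close to the lowest wild-type library and the other 3 db/db libraries sat together well below it. Nsdhl had a log2 difference of -0.37 (adjusted p = 0.0735), and -0.43 (adjusted p = 0.0147) without db/db 1.

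Msmo1, the methyl sterol oxidase that acts just before Nsdhl, overlapped between groups through db/db 1 alone. It held 5.49, 5.70, 6.50, 5.94 and 5.57 FPKM in wild type 1 to 5, 6.48 FPKM in db/db 1, and 4.15, 3.52 and 3.86 FPKM in db/db 3, 4 and 5. Its log2 difference was -0.34 (limma adjusted p = 0.214) with all libraries, -0.50 (adjusted p = 0.00843) without db/db 1, and -0.43 (adjusted p = 0.0175) once GC was corrected too. A part of Msmo1, 7.92% of its longest transcript, has matches in 85 other genes. The longest match is 216 bases of the rod gene Gnat1 at 94.0% identity. The part of these matches in the level of Msmo1 was not tested.

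Acat2, the cytosolic thiolase of the first step, and Tm7sf2, a sterol reductase, also overlapped between groups through db/db 1 alone, which held 8.95 FPKM of Acat2 and 6.69 FPKM of Tm7sf2. The wild-type ranges were 7.17 to 9.39 FPKM for Acat2 and 5.71 to 6.01 FPKM for Tm7sf2, and db/db 3, 4 and 5 lay below both, at 6.04 to 6.86 and 4.89 to 5.25 FPKM. Without db/db 1 they had log2 differences of -0.30 (adjusted p = 0.0369) and -0.18 (adjusted p = 0.0330), and only Tm7sf2 of this pair passed once GC was corrected too (adjusted p = 0.0285). Part of Acat2 matches its relative Acat3 at 97.7% identity over 1477 bases, and 12.1% of the exon bases of Tm7sf2 belong also to Vps51 on the same strand, so some reads of both may be shared.

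The other synthesis genes did not pass with or without db/db 1. Cyp51, which takes the first methyl group off lanosterol, and Sc5d, a late desaturase, had log2 differences of -0.30 (limma adjusted p = 0.152) and -0.21 (adjusted p = 0.152). Every db/db library was below every wild-type library in Sc5d (11.2 to 13.2 FPKM against 13.5 to 16.1 FPKM); its difference shrank to -0.06 once GC was corrected and db/db 1 left out, and its transcript has a GC content of 42.9%. Hmgcs1, the synthase of HMG-CoA, was the second most abundant synthesis gene per length, at 23.1 ± 2.34 FPKM (SD, n = 5) for wild type against 20.5 ± 2.35 FPKM (SD, n = 4) for db/db, with a log2 difference of -0.17 (95% interval -0.38 to 0.05). Lss, which closes the sterol ring, had -0.27 (adjusted p = 0.226), much of it from db/db 1 (4.60 FPKM, against 6.72 to 7.0 FPKM in the other db/db libraries), and -0.14 without that library.

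The remaining synthesis genes had estimates near 0 or above it with all 9 libraries. Mvk, Mvd and Pmvk, the 3 enzymes that phosphorylate and decarboxylate mevalonate, had log2 differences of -0.02, -0.01 and 0.27, with 95% intervals of -0.31 to 0.27, -0.24 to 0.21 and 0.01 to 0.54. Mvk held 9.67 FPKM in db/db 1, against 5.54 to 6.51 FPKM in db/db 3, 4 and 5. With db/db 1 left out Mvk had -0.16 (limma adjusted p = 0.162) and Mvd -0.08 (adjusted p = 0.537). Once GC was corrected too they had -0.25 (adjusted p = 0.05, not called) and -0.20 (adjusted p = 0.15). The estimate for Pmvk, the most abundant synthesis gene at 27.4 FPKM over all libraries, was carried by db/db 1 at 40.3 FPKM, against 25.6, 27.4 and 29.5 FPKM in db/db 3, 4 and 5, and came to 0.14 (limma adjusted p = 0.132) without it. Fdft1, squalene synthase, had 0.01, Ebp, a sterol isomerase, 0.10, and Dhcr7, the last reductase, -0.03, and each of these 3 estimates turned its sign without db/db 1. In the annotation 18.3% of the exon bases of Fdft1 lie opposite Ctsb, which is expressed at 75.6 FPKM, and the strand of counting is not given. A stretch of 1249 bases of Fdft1 also matches the annotated gene Gm6781 at 97.4% identity, so the level of Fdft1 is uncertain. The lower bound for Mvk, -0.31, equals the estimate for Sqle, so a fall of that size in Mvk was within its interval.

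As a description, the 250 bases before the transcription start were read from RefSeq promoters (build GRCm38.p6), which held 27 of the 32 members. Stard4, Sqle, Abcg1, Npc1 and Fdft1 had no promoter there. Several members that fell or rose, Stard4 with the smallest p among them, were therefore not examined. The motifs searched on both strands were the sterol regulatory element as first defined (ATCAC followed directly by CCCAC), a relaxed form of it (ATCAC, any 2 bases, CAC), TCACNCCAC, an element core added after the values were seen, CCAAT, the box bound by NF-Y that often stands beside SREBP sites, GGGCGG, the box bound by SP1, and a liver X receptor element (AGGTCA repeated after any 4 bases). Motifs may overlap, as the relaxed element and a CCAAT box do in Msmo1. The sequences below are those of Insig1, of 4 synthesis genes that fell without db/db 1, of Hmgcs1, which did not pass, and of Abca1, which rose without db/db 1. They are written from 5′ to 3′ along the gene and end at the base before the start, with CCAAT boxes and sterol element matches in capitals.
Insig1, chr5:28071162-28071411, plus strand: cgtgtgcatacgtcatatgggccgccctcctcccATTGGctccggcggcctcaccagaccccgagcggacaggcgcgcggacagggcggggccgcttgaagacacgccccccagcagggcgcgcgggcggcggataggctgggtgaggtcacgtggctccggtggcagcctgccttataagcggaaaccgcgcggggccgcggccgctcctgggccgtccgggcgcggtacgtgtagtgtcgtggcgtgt
Idi1, chr13:8885356-8885605, plus strand: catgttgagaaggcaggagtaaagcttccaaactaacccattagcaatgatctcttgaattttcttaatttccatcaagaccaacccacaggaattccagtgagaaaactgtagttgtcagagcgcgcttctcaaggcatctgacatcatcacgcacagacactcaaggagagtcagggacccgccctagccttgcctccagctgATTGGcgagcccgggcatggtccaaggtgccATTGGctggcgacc
Msmo1, chr8:64733579-64733828, minus strand: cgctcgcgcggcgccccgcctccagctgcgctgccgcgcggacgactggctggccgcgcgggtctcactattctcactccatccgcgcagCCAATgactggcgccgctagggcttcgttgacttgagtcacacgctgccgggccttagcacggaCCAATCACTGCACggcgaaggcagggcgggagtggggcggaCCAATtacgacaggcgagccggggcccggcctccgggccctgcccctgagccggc
Nsdhl, chrX:72918271-72918520, plus strand: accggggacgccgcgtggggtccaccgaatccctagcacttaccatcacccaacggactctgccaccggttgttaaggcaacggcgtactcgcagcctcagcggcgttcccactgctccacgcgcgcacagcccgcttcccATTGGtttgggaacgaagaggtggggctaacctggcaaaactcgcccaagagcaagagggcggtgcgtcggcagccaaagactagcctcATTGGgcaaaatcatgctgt
Hsd17b7, chr1:169969206-169969455, minus strand: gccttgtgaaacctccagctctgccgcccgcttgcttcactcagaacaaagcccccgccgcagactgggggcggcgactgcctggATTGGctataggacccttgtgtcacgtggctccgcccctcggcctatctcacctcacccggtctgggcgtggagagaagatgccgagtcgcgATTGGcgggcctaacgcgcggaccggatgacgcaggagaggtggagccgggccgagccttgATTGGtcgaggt
Hmgcs1, chr13:119690101-119690350, plus strand: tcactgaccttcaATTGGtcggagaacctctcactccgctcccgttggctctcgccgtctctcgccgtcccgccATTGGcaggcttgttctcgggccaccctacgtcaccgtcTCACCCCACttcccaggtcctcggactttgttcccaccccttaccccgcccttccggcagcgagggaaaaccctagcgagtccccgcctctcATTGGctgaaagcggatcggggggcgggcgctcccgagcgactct
Abca1, chr4:53159896-53160145, minus strand: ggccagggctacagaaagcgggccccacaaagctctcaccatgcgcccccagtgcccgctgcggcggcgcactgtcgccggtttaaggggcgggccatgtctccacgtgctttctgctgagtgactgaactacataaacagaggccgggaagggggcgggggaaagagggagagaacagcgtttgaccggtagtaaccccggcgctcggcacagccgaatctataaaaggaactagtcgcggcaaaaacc

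A CCAAT box was found in 14 of the 15 synthesis genes with a promoter, a share of 93.3%, where 40.5% of tested genes with a promoter and 37.5% of all genes with one held it. Acat2 was the synthesis gene without it, and genes that did not pass, such as Mvk and Dhcr7, held it too. Of the members that fell without db/db 1, 7 had a promoter, and 6 of these held the box (85.7%). GGGCGG was found in 23 of the 27 members (85.2%, against 64% of tested genes). The relaxed element was found in Msmo1, 93 bases before the start, among 27 members, and in 0.569% of tested genes. The core was found in Hmgcs1, 137 bases before the start, and in Stard3, with a share of 1.24% among tested genes. The liver X receptor element in its exact form was found in no member and in 0 of 9844 tested genes. Of all genes with a promoter 0.0148% held it. So rare a form cannot tell members from other genes. Forms that differ from it by some letters were not searched, so whether Abca1 holds such a form was not tested. The element as first defined was in no member either and in 0.061% of tested genes. A match describes letters and is not a bound site.

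Uptake was represented by Mylip, the ligase that removes lipoprotein receptors. It held 11.5, 11.4, 12.6, 13.4 and 12.2 FPKM in wild type 1 to 5, and 13.1, 15.8, 13.3 and 14.5 FPKM in db/db 1, 3, 4 and 5. Its groups overlapped through wild type 4. The log2 difference was 0.20 (SE 0.07, limma adjusted p = 0.194), and 0.23 without db/db 1 (adjusted p = 0.0565), so it did not pass in either fit.

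Among the genes of transport inside the cell, storage and oxidation, Stard4 had the smallest p of all members. STARD4 carries cholesterol between membranes in the cytosol, and its gene is a target of SREBP2 (ENSMUSG00000024378, chromosome 18, 33199355 to 33213862, mm10). It held 4.09, 4.43, 4.80, 4.41 and 4.60 FPKM in wild type 1 to 5, and 2.63, 2.79, 2.82 and 2.85 FPKM in db/db 1, 3, 4 and 5. The db/db values were nearly equal, and db/db 1 lay close to the other db/db libraries. The log2 difference was -0.53 (SE 0.06, limma adjusted p = 0.0115; 0.00566 to 0.428 over all alternatives), a ratio of means of 0.621. Of all members it alone passed with the GC correction on all 9 libraries (-0.44, adjusted p = 0.0420; 0.0207% of genes were called lower and 0.0414% higher with that correction).

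Stard4 and Insig1 both missed the threshold without wild type 2, wild type 3, wild type 4, wild type 5 or db/db 3, in which no member passed and 4 or 5 of all genes did. Without wild type 1 or db/db 4 Stard4 passed and Insig1 did not, and without db/db 5 both did. With single libraries left out the log2 difference ran from -0.56 to -0.51 in Stard4 and from -0.54 to -0.41 in Insig1.

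Stard3, which tethers late endosomes to the endoplasmic reticulum, had the second smallest p of this role. It held 8.56, 7.82, 7.18, 8.76 and 7.87 FPKM in wild type 1 to 5, and 10.5, 9.15, 9.01 and 9.45 FPKM in db/db 1, 3, 4 and 5. All db/db values lay above the wild-type ones, with a log2 difference of 0.22 (SE 0.07, limma adjusted p = 0.149) that came to 0.09 once GC was corrected and db/db 1 left out, the transcript having 55.8% GC. Npc1, the membrane protein that lets cholesterol leave lysosomes, held 9.85 to 10.7 FPKM in wild type, 6.76 FPKM in db/db 1, and 11.4, 12.5 and 11.6 FPKM in db/db 3, 4 and 5. Its log2 difference went from 0.01 with all libraries to 0.19 (adjusted p = 0.0329) without db/db 1, and to 0.24 (adjusted p = 0.0290) once GC was corrected too. Rmc1 overlaps 4.52% of the exon bases of Npc1 on the opposite strand, where the strand of counting is not given.

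Npc2, its soluble partner, moved the other way in db/db 1, at 14.6 FPKM against 9.55 to 10.2 FPKM in db/db 3, 4 and 5 and 8.87 to 9.99 FPKM in wild type. Its log2 difference was 0.19 (limma adjusted p = 0.391) and 0.05 without db/db 1. Soat1, which esterifies cholesterol for storage, and Cyp46a1, the neuronal enzyme that makes 24-hydroxycholesterol, had -0.13 (95% interval -0.26 to 0.01) and -0.02 (95% interval -0.25 to 0.21). Of the 6 genes of this role 1 fell and 5 did not pass with all 9 libraries.

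The efflux genes are the exporters and their receptors. Abca1, which loads cholesterol onto apolipoprotein particles, held 2.90, 3.76, 3.72, 3.85 and 3.08 FPKM in wild type 1 to 5, and 3.71, 5.89, 5.30 and 5.15 FPKM in db/db 1, 3, 4 and 5. The last 3 lay above all wild-type libraries and db/db 1 lay among them. The ratio of means was 1.45 with all libraries and 1.57 without db/db 1, and the log2 difference went from 0.42 (SE 0.12, limma adjusted p = 0.108) to 0.53 (SE 0.09, adjusted p = 0.0137). Once GC was corrected and db/db 1 left out it was 0.56 (adjusted p = 0.0177).

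Abcg1, which exports sterols to mature lipoprotein particles, held 17.2, 18.5, 18, 18.8 and 19.3 FPKM in wild type 1 to 5, and 20.2, 22.3, 23.0 and 23.1 FPKM in db/db 1, 3, 4 and 5. All db/db values lay above the wild-type ones, db/db 1 the nearest. The log2 difference was 0.25 (SE 0.06, limma adjusted p = 0.0795), 0.30 (adjusted p = 0.0126) without db/db 1 and 0.24 (adjusted p = 0.0255) once GC was corrected too. Nr1h2, the widely expressed liver X receptor and the most abundant member per length, held 26.4 to 30.5 FPKM among wild-type libraries against 29.7 to 40.5 FPKM among db/db libraries, with a log2 difference of 0.29 (adjusted p = 0.146) that came to 0.09 once GC was corrected and db/db 1 left out, its transcript having 60.6% GC. Nr1h3, the other receptor, had a wild-type mean of 2.09 ± 0.299 FPKM (SD, n = 5) against 2.09 ± 0.172 FPKM (SD, n = 4), and its log2 difference had a 95% interval of -0.19 to 0.20.

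**Figure D3:**
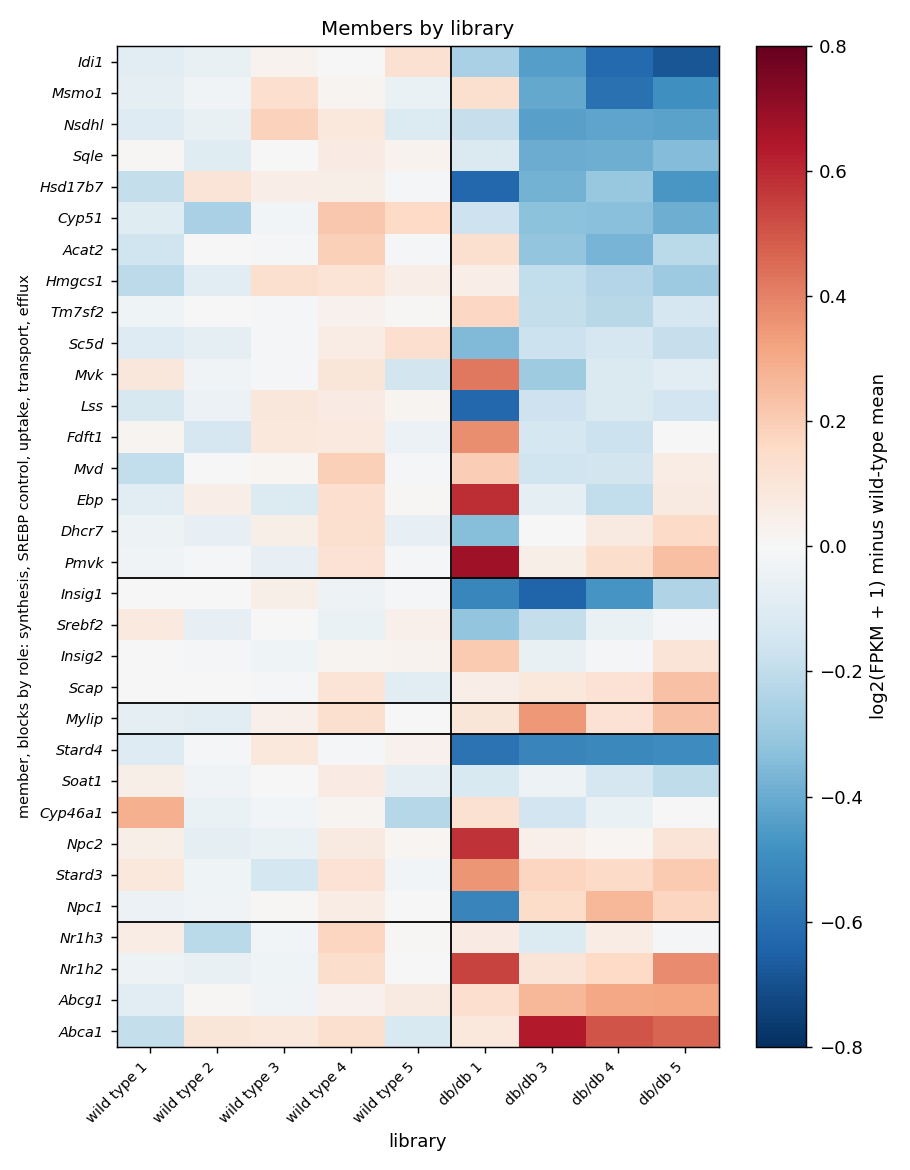
Log2(FPKM + 1) of each member in each library minus the wild-type mean of that member, blue below and red above, with members in rows by role and libraries in columns. In db/db 3, 4 and 5 most synthesis genes are blue and Abca1, Abcg1 and Npc1 red, while db/db 1 differs from them in Msmo1, Ebp, Pmvk, Npc1 and Npc2.

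Role means were also taken for each library, without GC correction and with no test. Averaged over the 17 synthesis genes, the deviation from the wild-type mean was 0.00 in db/db 1 but -0.24, -0.24 and -0.20 in the other db/db libraries (3, 4 and 5), with wild-type libraries between -0.08 and 0.09, so db/db 1 lay inside the wild-type range. Over the 4 efflux genes it was 0.20, 0.22, 0.26 and 0.29 in db/db 1, 3, 4 and 5, against -0.06 to 0.12 in wild type. In db/db 1 the receptor gene Nr1h2 held 40.5 FPKM, against 26.4 to 30.5 FPKM in wild type. Abcg1 also lay above its wild-type values there, while Abca1 and Nr1h3 lay among theirs. The mean over all tested genes was 0.07, 0.00, -0.03 and -0.02 in db/db 1, 3, 4 and 5. Correlations over the libraries were taken after the group means were removed. Pairs of synthesis genes had a median of 0.59 (136 pairs, 85 above 0) with all 9 libraries, and of 0.36 (114 above 0) without db/db 1. Pairs of the 9 members that fell without db/db 1 had 0.06 (36 pairs, 18 above 0) and 0.23 (30 above 0) in the same order. The libraries share depth and base composition effects, and pairs of other genes were not set beside these.

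Base composition went along with the changes. Over the 32 members the log2 difference correlated with transcript GC content at 0.59 with all libraries and at 0.50 without db/db 1, where all tested genes gave 0.41 and 0.43, described across genes, which are not independent. The synthesis genes that fell had GC contents from 41.9% in Idi1 to 51.0% in Tm7sf2, against a median of 49.8% over tested genes. After the GC correction without db/db 1 the correlation over members was 0.25, and Idi1 (-0.47, limma adjusted p = 0.0109), Sqle (-0.37, adjusted p = 0.0109), Nsdhl (-0.38, adjusted p = 0.0290), Insig1 (-0.44, adjusted p = 0.0260) and Stard4 (-0.43, adjusted p = 0.0109) still passed. Abca1, which rose, has a GC content of 47.5%, between those of Nsdhl (45.8%) and Insig1 (48.2%), which fell. Without db/db 1 the correction took Abca1 from 0.53 to 0.56. It took Nr1h2 (60.6% GC) from 0.21 to 0.09 and Sc5d (42.9% GC) from -0.17 to -0.06. Away from 0 it took Srebf2 (57.9% GC), from -0.09 to -0.19, and Mvk (56.3% GC), from -0.16 to -0.25. The part of base composition in the changes was not tested.

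**Figure D4:**
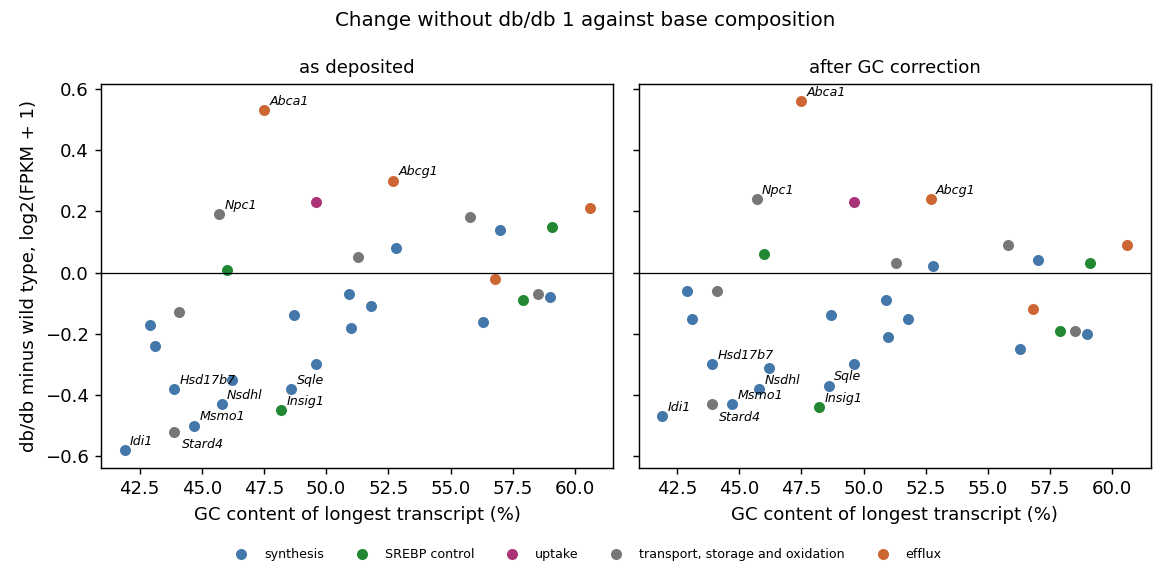
Log2 difference without db/db 1 against the GC content of the longest transcript (%), for the 32 members coloured by role, as deposited on the left and after correction for GC content on the right. Idi1, Stard4, Msmo1, Nsdhl, Sqle and Insig1 lie low in both panels, Abca1 high in both.

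Markers of other cells were set beside these results. The sum of the 6 Müller glia markers was 1010 to 1100 FPKM among wild-type libraries, 1090 to 1170 FPKM among db/db 3, 4 and 5, and 1330 FPKM in db/db 1; with db/db 1 left out 1 of the 6 rose and 2 fell. The 5 microglia markers summed to 9.86 to 14.0 FPKM for wild type, to 8.20 to 10 FPKM for db/db 3, 4 and 5 and to 12.7 FPKM for db/db 1. The 5 lens markers summed to 1.24 to 85.7 and 1.45 to 178 FPKM, with Lim2, a lens fibre gene, listed at 0 in every library but db/db 1. The sums of endothelial markers were 20.3 to 24.9 FPKM for wild type against 24.2 to 29.7 FPKM for db/db. The 3 pericyte markers summed to 23.9 to 27.5 FPKM for wild type, 23.4 to 26 FPKM for db/db 3, 4 and 5 and 32.5 FPKM for db/db 1, and the 3 markers of fibroblasts and sclera to 1.30 to 2.15 FPKM against 2.08 to 3.86 FPKM in all db/db libraries. Of these last, Col1a1, a collagen gene below the filter and so not tested, held 0.427 to 0.665 FPKM in wild type and 0.808 to 1.07 FPKM for db/db, without overlap.

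No marker passed over all genes with all 9 libraries, although Acta2, a contractile gene of mural cells, was higher in every db/db library (ratio of means 1.88, limma adjusted p = 0.125). Once db/db 1 was left out, 9 markers passed, in a fit that called 5.84% of all tested genes lower and 4.72% higher. Sag (rods), Rlbp1 and Slc1a3 (Müller glia), C1qa (microglia) and Rgs5 (pericytes) fell, and Aqp4 (Müller glia), Kdr (endothelium), Pdgfrb and Acta2 (pericytes) rose. The markers tested numbered 5 for rods, 6 for Müller glia, 3 for microglia, 3 for pericytes and 4 for endothelium. No tested marker of another cell type passed in that fit. Without db/db 1 C1qa had a log2 difference of -0.34 (adjusted p = 0.0396), and -0.46 (adjusted p = 0.0250) once GC was corrected too, when Rlbp1, Slc1a3 and Aqp4 also still passed and the other 5 did not. With all 9 libraries C1qa had -0.17 (adjusted p = 0.573), db/db 1 holding 4.02 FPKM against 2.70 to 3.66 FPKM in wild type. C1qb and Csf1r, the other microglia markers tested, passed in none of these fits. The part of these markers in the members' changes was not tested.

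Of 68 other genes of the pathway 63 reached the filter. None of the 63 rose or fell with all 9 libraries, and 15 had an unadjusted p under 0.05, where 19.3% of all tested genes did; the median log2 difference was 0.02. The smallest p-values included those of Nceh1, which releases cholesterol from its esters, which had a wild-type mean of 8.90 ± 0.330 FPKM (SD, n = 5) against 7.31 ± 0.360 FPKM (SD, n = 4) and a log2 difference of -0.25 (limma adjusted p = 0.0735), of Osbpl8, an oxysterol-binding protein gene (-0.33, adjusted p = 0.0854), and of Abca5 (-0.25, adjusted p = 0.126). Without db/db 1, 3 of the 63 fell and 6 rose, against 5.84% and 4.72% of all tested genes, with 5 of the 6 among the 9 further efflux genes. These 5 included Abcg4, a sterol exporter of neurons and glia (0.28, adjusted p = 0.00987), and Rxra, the partner of the liver X receptors (0.31, adjusted p = 0.0137), which were named after their values were seen. With GC corrected too, 0 of the 63 fell and 3 rose, against 2.56% and 1.88% of all tested genes, Abcg4 and Rnf145, a sterol-responsive ubiquitin ligase gene, among them. Of the 5 further efflux genes 4 then lost their call, Rxra included (0.21, adjusted p = 0.0581), and the median of the 9 went from 0.26 to 0.14.

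By level per length in wild type and db/db together, the members ran from Hsd17b7 at 1.67 FPKM to Nr1h2 at 30.6 FPKM, with a median of 8.90 FPKM against 6.49 FPKM over all tested genes. The regulators Srebf2, Scap and Insig1 (24.8, 21.7 and 21.7 FPKM), the exporter Abcg1 (20.1 FPKM) and the synthesis genes Pmvk, Hmgcs1 and Fdft1 (27.4, 22.0 and 19.6 FPKM) formed the upper end. In wild type, Insig1 at 24.1 to 25.7 FPKM, Pmvk at 23.7 to 26.9 FPKM and Srebf2 at 24.7 to 27.3 FPKM overlapped, so their order is not resolved. Soat1, Nr1h3 and Hsd17b7 formed the lower end, at 2.60, 2.09 and 2.02 FPKM in wild type, with overlapping ranges for the last 2.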

How the data were processed

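Retinal RNA was sequenced from 5 wild-type and 4 db/db libraries made with a SMARTER mRNA-Seq kit, per the labels' protocols. The authors deposited 1 table of FPKM values, the unit being taken from its name; per the submitters' processing notes mm10 was the build; aligner, counter and strand are not given in these sources. Columns named Control or DR were assigned by group and number to wild type and db/db, an inference from the names. Symbols, positions, lengths and GC content (longest transcript) came from GENCODE M21, for 34499 of 35397 identifiers.

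Depth was recovered from the steps of FPKM times exon length, with 99.0% to 99.1% of low values whole within 0.1 read. The 14588 genes averaging 1 FPKM or more were tested as log2(FPKM + 1), which understates the change of low genes, with limma 3.58.1 in R 4.3.3 (eBayes with a trend), db/db against wild type, no covariate, Benjamini-Hochberg adjustment over all genes and a threshold of 0.05. Near-identical copies were sought with blastn. Every member is named; values in every library are given for members past the threshold and for the 2 smallest p in each role, and of the other pathway genes the 4 smallest p, of which 1 is not reported here. Further members were given in full, and other genes marked as such were named, after their values were seen. Members and lists were chosen with earlier results of these data known. Alternatives changed the pseudocount (0.1), the filter (none, or 5 FPKM), the variance model and the scaling, or used array weights, a replicate block, GC and length correction in 20 bins, limma-voom on recovered reads, and leaving out libraries. Figures were drawn with matplotlib 3.10.9.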

Additional observations from a re-analysis of the deposited data

Results flagged for a closer look

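In 64 groups of 4 or 5 values, 5 held a value far from the others of its group, where chance gives about 1 in 20 groups; 4 of the 5 were in db/db 1. Sqle was at 7.68 FPKM in db/db 1, above the 6.14 to 6.39 FPKM of the other db/db libraries, and Nsdhl at 6.25 FPKM, above 5.10 to 5.16 FPKM. Npc2 was at 14.6 FPKM in db/db 1, above 9.55 to 10.2 FPKM, and Lss at 4.60 FPKM, below 6.72 to 7.0 FPKM. Nr1h2 was at 30.5 FPKM in wild type 4, above the 26.4 to 27.5 FPKM of the other wild-type libraries.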

How the results depend on the processing

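With all 9 libraries 2 members fell and 0 rose. The number that fell was 1 with no filter, with a filter at 5 FPKM and with GC correction, 3 with median-of-ratios scaling, quantile normalization and voom, 5 with length correction, 9 with array weights and 7 without db/db 1 and 4; the number that rose was 2 with array weights, with length correction and without db/db 1 and 4. Leaving out single libraries gave 0 to 9 that fell and 0 to 3 that rose, both highest without db/db 1, which gave 1540 calls over all genes against 73. With GC correction and db/db 1 left out 7 fell and 3 rose. With the replicate number as a block 0 fell and 0 rose, and 2 of all genes passed; the numbers are not known to pair the samples, whose same-numbered deviations correlated at -0.18 to 0.134 over 4 pairs, 1 of the 4 db/db libraries correlating best with its own number. Over 762 values of single members under the alternatives, 658 kept their direction and side of the threshold, 17 lost and 43 gained a call, and 44 changed sign, in 10 members, none of them called with all 9 libraries. Those were Fdft1 (-0.015 with equal sums, -0.06 with quantile normalization, -0.10 with array weights, -0.018 with the block, -0.027 with GC correction, -0.07 without db/db 1 and 4), Nr1h3 (-0.017 with equal sums, -0.05 with the block, -0.11 with GC correction, -0.07 with length correction, -0.06 without db/db 1 and 4), Ebp (-0.05 with array weights, -0.0023 without db/db 1 and 4), Dhcr7 (0.07 and 0.08 in the same), Npc1 (-0.011 with equal sums), Scap (-0.013 with GC correction) and Soat1 (0.038 with length correction). With GC correction and db/db 1 left out Fdft1 had -0.15, Nr1h3 -0.12, Ebp -0.09 and Dhcr7 0.022. Over single libraries left out, the log2 difference ran from -0.16 to 0.07 in Mvk, -0.08 to 0.038 in Mvd, -0.11 to 0.08 in Fdft1, -0.07 to 0.20 in Ebp, -0.09 to 0.08 in Dhcr7, -0.07 to 0.19 in Npc1, -0.08 to 0.05 in Cyp46a1 and -0.05 to 0.046 in Nr1h3. The causes were not tested.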
